A study of Homo sapiens and Mus musculus with 27 samples.

Results

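The comparison concerns constitutively active MKL1 (caMKL1) in LM2 cells, set against LM2 control cells, with 3 RNA sequencing libraries in each group. LM2 is a lung-seeking derivative of the triple-negative breast cancer line MDA-MB-231. All genes of the deposited count table that passed a filter on low counts were compared, 18893 of 59453, in these 6 of the 27 libraries of the series. The control libraries are labelled wild type, with control as their treatment. The caMKL1 libraries are titled and treated as caMKL1 overexpression. Their genotype label runs caMKL1, caMKL2 and caMKL3 over the 3 replicates, and the agreement of title, treatment and column name was taken to mean 3 replicates of 1 construct. A further group of 3 LM2 libraries, labelled wild type with overexpression of wild-type MKL1, is used here only where it shows how the active form differed from it. The construct's sequence, its promoter and its vector are not given in the labels, nor is it said whether the replicates were separate cultures or clones. P-values therefore measure the spread between these libraries, which may be technical.

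MKL1, whose current symbol is MRTFA, is a coactivator of the transcription factor SRF. In resting cells it is held by monomeric (G) actin. When actin polymerises, MKL1 is released, enters the nucleus and binds SRF at DNA elements called CArG boxes. Its best known targets are actins, actin-binding proteins, the contractile genes of smooth muscle and several genes of cell adhesion and matrix. A constitutively active form is one that no longer needs this release.

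Expression is given as CPM, library-scaled counts on a common total, after trimmed mean of M-values (TMM) scaling. Ratios are those of edgeR's quasi-likelihood fit over all 9 LM2 libraries, and a gene is said to have risen or fallen where its Benjamini-Hochberg adjusted p over all 18893 genes was under 0.05. The 6 libraries held between 22147429 and 28634692 counts in genes. caMKL1 library 1 stood apart from the other two of its group. Against those libraries the chi-square over genes, divided by the number of genes, was 45.9 and 49.9. Between libraries 2 and 3 it was 3.03, and between control libraries 2.26 to 7.63. Mitochondrially encoded RNA took 7.76% of its counts and 13.4% and 13.6% in the other two, against 7.73% to 8.94% in control. Leaving library 1 out gave 6041 rises and 6153 falls, and moved the number of risen or fallen members of any of the 62 gene lists examined by at most 5. Lists in which it moved by more than 3 numbered 2, the ribosomal proteins and the nuclear subunits of oxidative phosphorylation.

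caMKL1 was accompanied by a rise of 6030 genes, 31.9% of those tested, and a fall of 6241, 33.0%. At least 2-fold rises numbered 3702 (19.6%) and at least 2-fold falls 2870 (15.2%). At least 16-fold rises numbered 659 and at least 16-fold falls 38. Of the former, 572 had a control mean under 1 CPM, and genes near 0 in control passed the filter only where they were high, so these numbers do not measure an asymmetry. The median log2 ratio of all tested genes was -0.05. With library totals in place of TMM factors this median moved down by 0.41, and the calls became 4137 rises and 9271 falls, so that rises made up 30.9% of calls and not 49.1%. All directions below are relative to the TMM scale, and the shares of all genes that rose or fell are the background for the counts of list members. With library totals 13 of the 62 lists had a median of the other sign. Among those described below these were the collagen chains, the matrix proteases, the Hippo list, the chemokine list, the epithelial junction genes and the BCL2 family. The amount of RNA per cell was not measured.

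**Figure D1:**
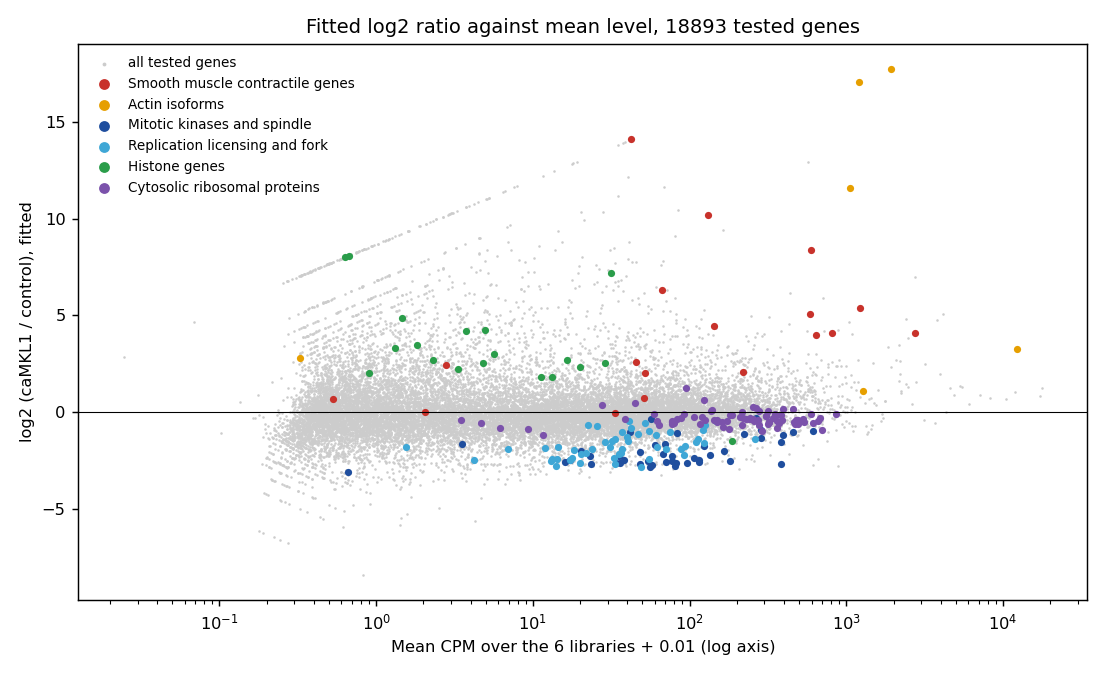
Fitted log2 ratio of caMKL1 to control (y axis) against the mean CPM of the 6 libraries (x axis, log scale) for each of the 18893 tested genes, with 6 gene lists in colour. Actin genes and most smooth muscle genes lie above 0, up to a log2 ratio of 17.73, and the mitotic and replication genes lie below 0. The slanted rows at the left are genes with 0 or few counts in control.

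The transcript of the introduced gene itself was measured first. MRTFA (chr22:40410281-40636719, GRCh38) stood at 10.6, 10.3 and 11.5 CPM in control and at 174.8, 257.4 and 222.5 CPM in caMKL1. The groups did not overlap, and the rise was 20.2-fold (adjusted p = 9.82e-13, edgeR). In the libraries with wild-type MKL1 it averaged 161.7 CPM ± 20.3 (SD, n = 3). The table counts the introduced and the endogenous transcript together. The mean MRTFA level with caMKL1 was 1.35-fold that with wild-type MKL1 (adjusted p = 0.00695, edgeR). Whether the differences of other genes between these 2 groups followed this level was not tested.

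SRF, the DNA-binding partner, rose 4.5-fold, from 31.7, 32.4 and 30.5 CPM to 159.9, 136.0 and 129.9 CPM (adjusted p = 8.71e-11, edgeR). The related coactivator MRTFB went the other way. It fell 3.46-fold, from 70.3, 69.8 and 71.6 CPM to 21, 19.3 and 20.9 CPM (adjusted p = 6.03e-10, edgeR). SCAI, described as a suppressor of MKL1 activity, fell 2.81-fold from 49.99 to 17.9 CPM, and FHL2, an SRF-binding LIM protein, rose 3.08-fold from 18.8 to 57.9 CPM. ELK1, an ETS partner of SRF, stood at 17.8 and 16.8 CPM and did not pass the test.

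The 6 actin genes all rose, under both TMM and library totals, against 31.9% of all genes. Of these 6, 3 had under 10 counts per control library. ACTG2, the enteric smooth muscle actin (chr2:73892314-73919865), had 0, 0.038 and 0 CPM in control, a single read in all, and 4540, 3556 and 3487 CPM with caMKL1. ACTC1, the cardiac actin (chr15:34790230-34795549), had 1 control read likewise and reached 3170, 2079 and 1961 CPM. The ratio of counts behind such a change has a wide counting interval: 303370 for ACTG2, with a 95% interval of 54450 to 11980000, and 190970 for ACTC1, with 34280 to 7543000. ACTA2, the vascular smooth muscle actin, went from 0.528, 0.873 and 0.641 CPM to 2214, 2034 and 2113 CPM. No library of either group came near the other group in these genes. FAS, ACTA2-AS1 and STAMBPL1 overlap ACTA2 on the opposite strand. The counting options name no strand, so reads of the overlap cannot be told apart. ACTA2-AS1 went from 0.936 to 33.4 CPM and STAMBPL1 from 69.3 to 21.5 CPM.

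The cytoplasmic actins were abundant from the start. ACTB rose 9.68-fold, from 2358, 2261 and 2311 CPM to 21440, 22290 and 23340 CPM (log2 ratio 3.27, SE 0.16, adjusted p = 4.97e-11, edgeR). ACTG1 rose 2.1-fold, from 849, 837 and 769 CPM to 2075, 1592 and 1490 CPM (adjusted p = 6.21e-05, edgeR). ACTA1, the skeletal actin, remained rare, with a mean of 1.03 TPM, a level per exon length, in the caMKL1 group. On that per-length scale, control cells held ACTB at 2127 TPM, ACTG1 at 820 TPM and every other actin under 1 TPM. The caMKL1 cells held ACTB at 13620 TPM ± 2137 (SD, n = 3), ACTC1 at 2931 ± 1422, ACTG2 at 2786 ± 995, ACTA2 at 1930 ± 456 and ACTG1 at 1171 ± 452. ACTC1, ACTG2 and ACTA2 thus each stood above ACTG1 on average, with a wide spread over the 3 libraries. All actin genes together took 0.344% to 0.357% of counts in control and 2.55% to 3.04% with caMKL1. ACTB, ranked 15 among genes by share of counts in control, was ranked 2 with caMKL1, at 1.88% of counts. Its neighbours at the top were mitochondrial RNAs: MT-ND4, MT-RNR2, MT-ATP6, MT-CO1, MT-ND2, MT-ND5, MT-CO2 and MT-CYB. CCN2 was the only other nuclear gene among the first 10.

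**Figure D2:**
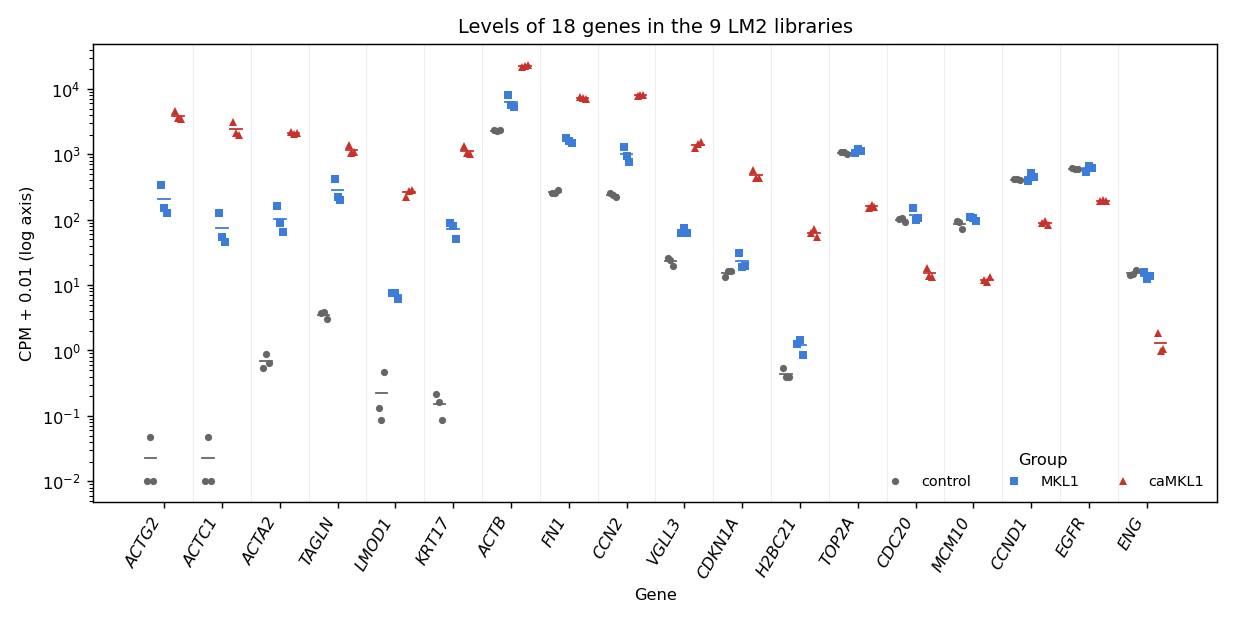
Levels of 18 genes in each of the 9 LM2 libraries, in CPM with 0.01 added so that 0 can be drawn on the log axis; short lines are group means of 3 libraries. Muscle and adhesion genes were lowest in control, higher with wild-type MKL1 and highest with caMKL1, while TOP2A, CDC20, MCM10, CCND1, EGFR and ENG were lower with caMKL1 than in either other group.

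The smooth muscle contractile list has 19 genes, of which 18 passed the filter, 2 of them with under 10 counts per control library on average. Of the 18, 15 rose, none fell and 3 did not pass, and the median log2 ratio was 4.03 (3.62 with library totals). LMOD1, which nucleates actin filaments in smooth muscle, went from 0.122, 0.076 and 0.453 CPM to 223.4, 275.3 and 286.3 CPM. TAGLN, an actin-bundling marker of smooth muscle, went from 3.73, 3.84 and 2.98 CPM to 1410, 1058 and 1076 CPM, a 336-fold rise (adjusted p = 1.41e-12, edgeR). SYNPO2, an actin-bundling Z-disc protein, rose 79-fold from 1.65 to 130.8 CPM, and MYL9, the regulatory light chain of smooth muscle myosin, 41.1-fold from 58.3 to 2395 CPM. CARMN, the long noncoding host of miR-143 and miR-145 (chr5:149406689-149432835), had no read in any control library and stood at 76.2, 84.6 and 93.8 CPM, at least 2172-fold higher when control is set to 3 counts over the group. The late smooth muscle markers MYH11 and SMTN did not pass the test. MYH11, the smooth muscle myosin heavy chain, stood at 2.23, 1.90 and 1.92 CPM in control and 1.58, 2.49 and 2.13 CPM with caMKL1, and the groups overlapped. SMTN, smoothelin, stood at 34.0 and 33.2 CPM and did not pass. DES and MYOCD, the desmin gene and the myocardin gene, did not pass the filter on low counts.

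Of 14 listed smooth muscle ion channel and signalling genes, 11 passed the filter, 9 of these rose and 1 fell. Of the 9, 4 had under 10 counts per control library. KCNMB1, the beta subunit that tunes the large-conductance potassium channel of smooth muscle, had no control read and 74.0, 78.4 and 78.7 CPM with caMKL1, at least 1983-fold higher. PLN, the regulator of the sarcoplasmic calcium pump, went from 0.204 to 39.4 CPM, TRPC6, a cation channel, from 0.26 to 38.7 CPM, and EDNRA, the endothelin receptor, from 3.5 to 37.4 CPM. RGS5, a marker of pericytes, fell 1.61-fold from 13.6 to 8.5 CPM. Genes of striated muscle were also found. Of 39 listed only 15 passed the filter, and 10 of those 15 had under 10 counts per control library, so that their passing rested on libraries with either form of MKL1. MYL7, the atrial light chain, went from 0 to 35.6 CPM, UNC45B, a muscle myosin chaperone, from 0 to 69.4 CPM, and LDB3, a Z-disc protein, from 0.064 to 30.8 CPM. TNNT1, slow skeletal troponin T, fell from 73.2 to 25.3 CPM.

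The element that SRF binds was then counted in promoters. RefSeq promoter windows (GRCh38.p14, from 250 bases before to 50 after the start of transcription) were matched by symbol to 11571 of the 18893 tested genes, taking the first listed start of each. A CArG box was taken as CC and GG around 6 bases that are each A or T, a pattern that reads the same on both strands. Variants with a C or G among the 6 bases were not searched. The window held at least 1 exact match in 142 of 11571 promoters (1.23%). It was found in 71 of 2136 promoters of genes that rose at least 2-fold (3.32%), in 28 of 340 of genes that rose at least 16-fold (8.24%), and in 9 of 1719 of genes that fell at least 2-fold (0.524%). Seen from the motif, genes without a CArG box in the window rose at least 2-fold in 18.1% of cases and had a median log2 ratio of -0.08. Those with 1 box rose at least 2-fold in 49.6% of cases, with a median of 1.0. Only 5 promoters held 2 or more, and 3 of those genes rose at least 2-fold. Among genes with at least 5 CPM in either group the shares were 48.7% of 113 with a box and 16.4% of all 8720. Genes near 0 in control met this cut only where they were high with caMKL1, so both shares depend in part on the rise. These are descriptions of letters in a window and were not tested.

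Below are the 250 bases before the start of 5 such genes, 5′ to 3′ on the gene's strand, with each exact match to the CArG box in capitals. They were chosen because they are the genes with the largest rises, the partner factor itself, an immediate early gene and a histone gene. EGR1 and H2BC21 do not stand for their lists. A box stood in 1 of 16 immediate early windows, that of EGR1, and in 2 of 17 histone windows. In the smooth muscle contractile list it stood in 2 of 14 windows and in the focal adhesion list in 1 of 31. Over all windows the share was 1.23%. ACTG2 and ACTC1 lead the list of rises, and their boxes begin 110 and 73 bases (ACTG2) and 109 bases (ACTC1) before the start. SRF has boxes at 30 and 10 bases, EGR1 at 105 and 83, and H2BC21 at 164. The windows are chr2:73892758-73893007 (+) for ACTG2, chr15:34795550-34795799 (-) for ACTC1, chr6:43171019-43171268 (+) for SRF, chr5:138465229-138465478 (+) for EGR1 and chr1:149886683-149886932 (-) for H2BC21.
ACTG2: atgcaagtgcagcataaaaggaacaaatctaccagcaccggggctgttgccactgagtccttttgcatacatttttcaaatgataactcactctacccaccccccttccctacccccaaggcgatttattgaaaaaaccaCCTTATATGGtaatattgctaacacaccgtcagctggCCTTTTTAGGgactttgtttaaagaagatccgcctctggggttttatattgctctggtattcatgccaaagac
ACTC1: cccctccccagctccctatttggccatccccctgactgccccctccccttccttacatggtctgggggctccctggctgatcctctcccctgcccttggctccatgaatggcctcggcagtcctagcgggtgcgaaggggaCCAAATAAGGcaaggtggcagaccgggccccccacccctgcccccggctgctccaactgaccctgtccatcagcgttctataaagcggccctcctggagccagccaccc
SRF: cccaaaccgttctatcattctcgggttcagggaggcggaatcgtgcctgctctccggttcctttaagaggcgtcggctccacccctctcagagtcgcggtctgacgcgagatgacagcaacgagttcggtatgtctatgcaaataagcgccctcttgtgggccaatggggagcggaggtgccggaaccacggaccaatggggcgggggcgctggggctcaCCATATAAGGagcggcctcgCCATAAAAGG
EGR1: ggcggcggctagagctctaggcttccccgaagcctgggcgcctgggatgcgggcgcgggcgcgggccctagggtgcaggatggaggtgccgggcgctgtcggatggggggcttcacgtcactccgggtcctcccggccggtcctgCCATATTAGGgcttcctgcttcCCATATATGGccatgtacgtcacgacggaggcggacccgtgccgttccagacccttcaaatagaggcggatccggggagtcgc
H2BC21: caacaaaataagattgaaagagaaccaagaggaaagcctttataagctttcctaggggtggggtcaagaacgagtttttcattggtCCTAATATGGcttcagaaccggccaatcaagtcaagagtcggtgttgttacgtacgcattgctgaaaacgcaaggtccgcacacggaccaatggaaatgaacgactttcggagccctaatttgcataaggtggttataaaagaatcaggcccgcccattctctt

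Of the other actins with a promoter in the table, ACTG1 and ACTA1 also held a CArG box in the window. ACTA2 held no exact match, and variants of the box were not searched. Boxes were not confined to genes that rose. ARHGDIB, which holds small GTPases in their inactive form, held 1 at 85 bases before its start and fell from 178.9 to 67.4 CPM. Among all 142 promoters with a box, 95 (66.9%) had it within 150 bases before the start, and among the 71 of risen genes 50 (70.4%) did. Other motifs searched were AP-1 (TGANTCA), TEAD (GGAATG, both strands), CHR (TTTGAA, both strands) and CCAAT (both strands), each on its own, so that a base may belong to more than 1. AP-1 stood in 5.05% of all windows, 6.74% of at least 2-fold risers and 6.34% of at least 2-fold fallers. TEAD stood in 11.3%, 14.3% and 11.3%. Among the 340 windows of genes that rose at least 16-fold, AP-1 stood in 10.9% and TEAD in 17.6%.

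**Figure D3:**
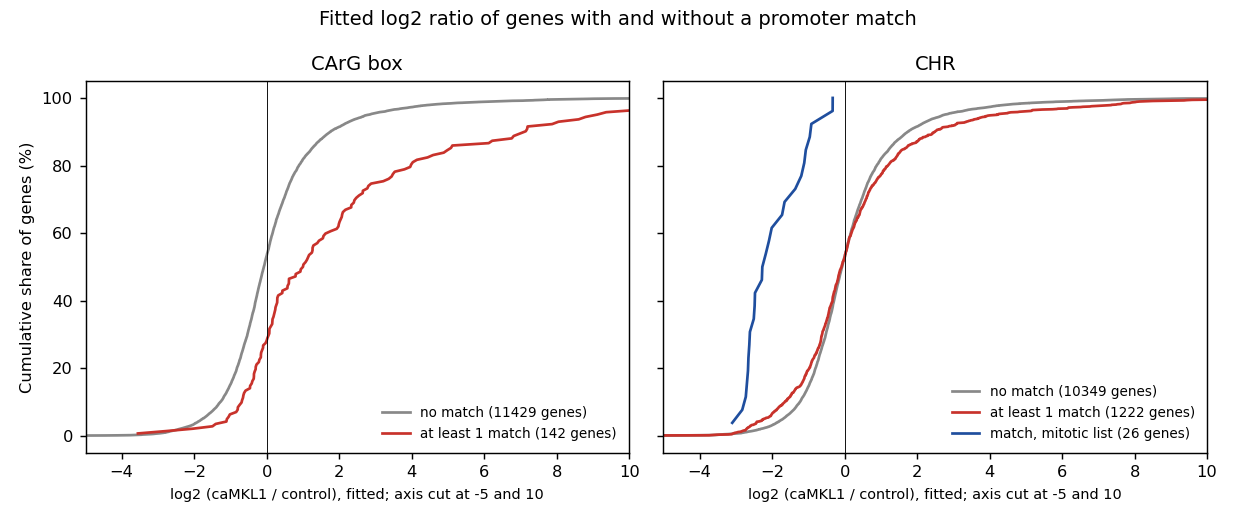
Cumulative share of genes (y axis, percent) up to each fitted log2 ratio of caMKL1 to control (x axis), for genes whose promoter window holds a CArG box (left) or a CHR (right) and for those that hold none. The curve with a CArG box lies to the right of the curve without. The curves with and without a CHR nearly coincide, while the 26 mitotic genes with a CHR lie wholly below 0.

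Beyond actin itself, genes of the contractile and filament machinery mostly rose. The 4 tropomyosins, which stabilise filaments, all rose, TPM2 the most, from 12.2, 11.2 and 13.9 CPM to 262, 270 and 283 CPM. TPM4 reached 3506 CPM from 890 CPM. Of 14 tested genes of nonmuscle myosin II and its regulators, 12 rose and 1, MYH10, fell. PPP1R12A, the targeting subunit of myosin phosphatase, rose 5.17-fold from 323 to 1667 CPM, MYH9 from 602 to 1777 CPM, and RND3, an antagonist of RhoA signalling, from 81.3 to 328 CPM. RHOA itself stood at 608 and 548 CPM and did not pass. Of 43 genes of actin assembly and turnover 27 rose and 6 fell, and with library totals 20 rose and 14 fell. The severing and depolymerising proteins were among the risers: CFL2 from 142 to 1140 CPM, DSTN from 318 to 2065 CPM and GSN from 20.0 to 190.4 CPM. TMOD1, which caps the pointed ends of filaments, went from 0.411 to 38.9 CPM. PFN2, a profilin that binds G-actin, fell 3.7-fold from 74.4 to 20.1 CPM.

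Tubulin genes went the other way. Of 11 tested, 7 fell and 1 rose. TUBA1A fell 3.2-fold, from 116, 117 and 139 CPM to 42.9, 37.9 and 35.2 CPM, and TUBB 2.02-fold from 1021 to 507 CPM. TUBA4A, the exception, went from 15.2 to 26.7 CPM. Intermediate filaments and lamins were mixed, with 4 rises and 6 falls among 12. VIM, the vimentin gene, rose 3.94-fold from 1578, 1618 and 1598 CPM to 5539, 6641 and 6696 CPM. NES fell from 38.9 to 10.3 CPM and LMNB2, a B-type lamin, from 163.5 to 45.5 CPM.

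Genes that attach actin to the matrix rose more often than they fell. In the focal adhesion list of 40 genes, 39 were tested, 25 rose and 11 fell (21 and 14 with library totals). FBLIM1 (migfilin), a filamin-binding adaptor, rose from 21.2 to 216.5 CPM, PDLIM5 from 241 to 1551 CPM and FERMT2 (kindlin-2), an integrin activator, from 186 to 1197 CPM. The core signalling members PTK2 (focal adhesion kinase) and PXN (paxillin) did not pass, at 236 and 219 CPM and at 64.7 and 53.3 CPM. TRIP6, a zyxin family protein, fell 4.2-fold from 18.02 to 4.27 CPM. Of 17 tested integrin subunits, 11 rose and 4 fell, and 3 of the 11 had under 10 counts per control library. ITGA5, the fibronectin receptor chain, rose 25.2-fold, from 76.1, 78.8 and 81.6 CPM to 2398, 1848 and 1725 CPM. ITGA1, a collagen receptor chain, rose 19.1-fold from 87.7 to 1675 CPM, while ITGA2, another collagen receptor chain, fell 4.31-fold from 265 to 61.6 CPM. The caveolar coat, which flattens under membrane tension, rose in 6 of 8 tested genes, with CAV1 from 544 to 3584 CPM and CAVIN2 from 34.8 to 565 CPM. EHD2, at the caveolar neck, fell from 68.2 to 21.2 CPM.

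Among matrix genes FN1 (chr2:215360440-215436073), fibronectin, stood out. It stood at 260, 254 and 280 CPM in control and at 7384, 7360 and 7040 CPM with caMKL1, a 27.4-fold rise (log2 ratio 4.78, SE 0.12, adjusted p = 6.38e-14, edgeR). TNC, tenascin-C, rose 16.6-fold from 123.5 to 2046 CPM and LOX, the collagen crosslinking enzyme, 12.6-fold from 34.6 to 435 CPM. The matrix lists as a whole had no one direction. Of 26 collagen chains 13 rose, 4 of them with under 10 counts per control library, and 9 fell, a share near that of all genes, and the median log2 ratio was 0.34, or -0.06 with library totals. COL5A2 rose from 2.64 to 62.4 CPM and COL8A1 from 235 to 987 CPM, while COL13A1 fell from 120.4 to 49.3 CPM. Of 24 matrix proteases and their inhibitors 10 rose and 10 fell, and with library totals 7 rose and 12 fell. ADAMTS1 rose from 8.18 to 228.2 CPM. HPSE, the heparanase that cuts heparan sulfate chains, fell 10.2-fold, from 44.6, 40.1 and 40.2 CPM to 3.96, 3.71 and 4.62 CPM. TFPI, the tissue factor pathway inhibitor, fell 6.52-fold from 216 to 33.1 CPM.

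The Hippo pathway restrains the coactivators YAP and TAZ, which act through TEAD factors and share several targets with MKL1 and SRF. Of 27 listed genes 13 rose and 8 fell, and with library totals 7 rose and 12 fell, so the list as a whole has no fixed direction. At least 2-fold rises numbered 6, and the target AMOTL2, at 48.7 and 56.7 CPM, did not pass. CCN2 (connective tissue growth factor) went from 253, 240 and 223 CPM to 7773, 8017 and 8171 CPM, a 33.5-fold rise that took it from rank 708 to rank 8 by share of counts. VGLL3, a TEAD cofactor, rose 60.1-fold from 26.1, 24.2 and 19.8 CPM to 1240, 1445 and 1530 CPM. CCN1 rose from 602 to 3801 CPM and ANKRD1 from 354 to 3986 CPM. AJUBA and NF2, both of the upstream pathway, fell from 117.4 to 32.8 CPM and from 10.2 to 4.15 CPM.

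Immediate early genes, which respond to growth factors within minutes and several of which carry SRF sites, rose in 16 of 23 tested cases and fell in 4. Of the 23, 5 had under 10 counts per control library, and 4 of these were among the risers. EGR1 went from 18.6, 25.2 and 30.4 CPM to 268, 273 and 289 CPM (11.2-fold, adjusted p = 7.1e-11, edgeR). EGR3 went from 0.155 to 41.0 CPM, EGR2 from 0.194 to 16.6 CPM and NR4A3, an orphan nuclear receptor, from 0.424 to 36.7 CPM. ZFP36L1, which destabilises AU-rich messages, fell from 168.3 to 45.0 CPM. Of 13 AP-1 factors 8 rose and 3 fell, a share of falls below the 33.0% of all genes. FOS rose 59.6-fold from 1.46, 1.75 and 1.40 CPM to 95.9, 81.5 and 98.3 CPM, FOSB from 1.34 to 42.0 CPM and ATF3 from 5.26 to 76.2 CPM. JUN, the partner of FOS, fell 1.44-fold from 55.4 to 38.5 CPM, and FOSL1 stood at 60.4 and 51.4 CPM and did not pass. The phosphatase DUSP4, which restrains ERK, fell 5.82-fold from 274 to 47.0 CPM, and DUSP5 rose from 54.0 to 213.7 CPM.

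Growth factor systems changed in parts. In the TGF-beta and BMP list of 30 genes 20 rose and 9 fell. Ligands and an early target rose: BMP2 59.6-fold from 2.23, 2.85 and 2.83 CPM to 143, 158 and 172 CPM, INHBA (activin A) from 5.18 to 86.8 CPM, and ID2 from 0.639 to 28.1 CPM. BAMBI, a decoy receptor, rose from 1.14 to 10.4 CPM. The receptor TGFBR2 fell 3.46-fold from 222.5 to 64.4 CPM, its signal carrier SMAD3 3.59-fold from 219 to 61.0 CPM, and ENG, the accessory receptor endoglin, 11.6-fold from 14.2, 14.8 and 16.9 CPM to 1.85, 0.988 and 1.04 CPM. In the EGF family 8 of 11 rose and 3 fell. EGFR, the main receptor of these cells, fell 3.12-fold, from 623, 596 and 597 CPM to 193, 198 and 190 CPM, and ERBB2 fell from 24.2 to 11.8 CPM. ERBB4 rose from 0.472 to 50.5 CPM and the ligands BTC and EGF from 1.17 to 34.1 CPM and from 15.7 to 114.7 CPM. Of other receptor tyrosine kinases AXL fell 4.43-fold from 699 to 158 CPM, FGFR2 rose from 0.078 to 20.3 CPM, and MET, at 374 and 413 CPM, did not pass.

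The cell cycle genes formed the most uniform block of falls. All 44 genes of the list of mitotic kinases and spindle proteins passed the filter and all 44 fell, against 33.0% of all genes, 40 of them at least 2-fold, with a median log2 ratio of -2.28 (-2.68 with library totals). Without caMKL1 library 1, 43 fell. CDK1, the mitotic kinase, went from 206, 206 and 172 CPM to 37.4, 34.2 and 32.8 CPM, a 5.59-fold fall (adjusted p = 9.88e-12, edgeR). CDC20, the activator of the anaphase-promoting complex, fell 6.62-fold from 100.1 to 15.1 CPM, ASPM, a spindle pole protein, 6.49-fold from 662 to 102.1 CPM, KIF2C, a microtubule depolymerase, 6.87-fold from 141.0 to 20.5 CPM and BIRC5 (survivin) 6.4-fold from 83.7 to 13.1 CPM. In the list of kinetochore, condensin and cohesin genes 38 of 44 fell and 2 rose. TOP2A (chr17:40388525-40417896), which untangles replicated DNA, fell 6.65-fold, from 1076, 1100 and 1001 CPM to 152.1, 167.9 and 157.8 CPM (log2 ratio -2.73, SE 0.10, adjusted p = 2.32e-12, edgeR). CENPA, the histone that marks centromeres, fell 8.2-fold from 19.6 to 2.39 CPM. The risers were STAG1 and STAG2, cohesin subunits found throughout the cycle, at 81.0 and 109.3 CPM and at 279 and 350 CPM. With library totals neither passed, and the log2 ratio of STAG2 changed sign to -0.09.

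DNA replication showed the same picture. All 51 genes of origin licensing and the replication fork were tested and fell, 42 of them at least 2-fold, with a median log2 ratio of -1.82. MCM10 went from 95.2, 91.9 and 72.0 CPM to 12.2, 11.2 and 13.2 CPM, a 7.09-fold fall (adjusted p = 1.23e-11, edgeR), ASF1B, a histone chaperone, from 24.7 to 3.54 CPM and PRIM1, a primase subunit, from 34.6 to 5.59 CPM. Of 24 genes of nucleotide synthesis 19 fell and 1 rose. RRM2, the small subunit of ribonucleotide reductase that is made in S phase, fell 6.24-fold from 223 to 35.7 CPM, and RRM2B, its damage-induced relative, rose from 82.5 to 106.2 CPM, with a log2 ratio of 0.36 that became -0.05 with library totals. Of 33 homologous recombination and Fanconi genes 28 fell and 2 rose. EXO1 fell from 72.0 to 11.2 CPM and RAD54L from 18.9 to 2.48 CPM, while CHEK1, the checkpoint kinase, went up from 109.4 to 165.3 CPM. ATR stood at 103.8 and 92.4 CPM and did not pass.

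The regulators of cell cycle entry included the genes with the clearest opposite movement. Among 9 tested CDK inhibitors and pocket proteins, however, only 2 rose, CDKN1A and CDKN1B, and 5 fell, with a median log2 ratio of -0.33. CDKN1A, the inhibitor p21, rose 31.3-fold, from 13.4, 16.2 and 16.3 CPM to 569, 439 and 428 CPM (log2 ratio 4.97, SE 0.20, adjusted p = 4.19e-12, edgeR). CDKN1B, the inhibitor p27, rose 4.47-fold from 78.4, 83.0 and 86.5 CPM to 332, 361 and 415 CPM. The pocket protein RBL1 fell from 107.4 to 25.0 CPM. Of 22 G1 cyclins, kinases and E2F factors 16 fell and 3 rose. CCND1, cyclin D1, fell 4.59-fold, from 412, 414 and 401 CPM to 88.5, 94.4 and 84.3 CPM, its kinase CDK4 4.04-fold from 40.5 to 9.92 CPM, and FOXM1, the factor that drives the late cell cycle programme, 4.76-fold from 134.4 to 28.2 CPM. CCND2 rose from 13.1 to 33.0 CPM and E2F8, a repressor of E2F targets, from 41.3 to 86.8 CPM. Bulk libraries cannot tell fewer cycling cells from less of these messages per cycling cell.

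Late cell cycle genes are known for a promoter element called the cell cycle genes homology region (CHR), often paired with CCAAT boxes. The CHR letters stood in 10.6% of all 11571 windows, in 26 of the 38 matched promoters of the mitotic list (68.4%) and in 19 of 38 of the kinetochore list, but in 1 of 44 of the replication list (2.27%). Both CHR and CCAAT letters stood in 4.52% of all windows, in 57.9% of the mitotic ones and in 2.27% of the replication ones. The CHR was not particular to falls, as its letters stood in 18.8% of windows of genes that rose at least 16-fold and 19.9% of those that fell at least 4-fold. A difference in base composition of these windows was not examined. Shown here for their place among the strongest falls are the 250 bases before the start of TOP2A (chr17:40417897-40418146, -), CDC20 (chr1:43358731-43358980, +), CENPA (chr2:26785806-26786055, +) and ASPM (chr1:197146670-197146919, -), with CHR letters of either strand in capitals.
TOP2A: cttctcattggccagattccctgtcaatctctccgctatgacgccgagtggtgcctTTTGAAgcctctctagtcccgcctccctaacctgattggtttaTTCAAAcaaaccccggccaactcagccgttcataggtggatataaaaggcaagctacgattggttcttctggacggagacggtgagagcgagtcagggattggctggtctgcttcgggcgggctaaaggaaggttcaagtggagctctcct
CDC20: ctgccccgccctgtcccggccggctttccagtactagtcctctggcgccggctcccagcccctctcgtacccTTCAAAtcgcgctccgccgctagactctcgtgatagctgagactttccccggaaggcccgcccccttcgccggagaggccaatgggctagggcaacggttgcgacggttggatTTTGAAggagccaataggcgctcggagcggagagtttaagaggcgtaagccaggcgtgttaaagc
CENPA: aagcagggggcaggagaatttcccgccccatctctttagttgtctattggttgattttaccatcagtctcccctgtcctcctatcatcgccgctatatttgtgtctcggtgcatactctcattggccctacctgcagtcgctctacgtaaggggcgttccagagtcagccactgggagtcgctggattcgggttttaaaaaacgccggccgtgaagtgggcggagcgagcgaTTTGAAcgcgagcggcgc
ASPM: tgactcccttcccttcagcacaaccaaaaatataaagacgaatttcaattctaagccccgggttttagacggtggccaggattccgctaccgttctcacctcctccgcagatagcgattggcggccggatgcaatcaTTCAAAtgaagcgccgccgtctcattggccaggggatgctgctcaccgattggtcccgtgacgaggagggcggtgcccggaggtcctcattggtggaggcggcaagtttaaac

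The CHR lies 194 and 151 bases before the start of TOP2A, 178 and 65 bases before that of CDC20, 18 before that of CENPA and 113 before that of ASPM. No window of the mitotic, kinetochore or replication lists (38, 38 and 44 windows) held an exact CArG box. Only 1.23% of all windows held one, so its absence from so few windows says little about these lists.

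Histone genes mostly rose while the rest of the replication programme fell. Histone names of the linker and core families searched matched 67 genes, of which 19 passed the filter, and 6 of these had under 10 counts per control library. Of the 19, 18 rose and 1 fell. The libraries were made from polyadenylated RNA, and clustered histone messages mostly end without a poly(A) tail, so what was measured is their polyadenylated fraction. H2BC21 went from 0.528, 0.380 and 0.377 CPM to 61.7, 72.0 and 54.6 CPM, a 146-fold rise (adjusted p = 2.17e-13, edgeR). H2BC5 rose from 4.47 to 28.6 CPM and H2BC11 from 0.491 to 9.41 CPM.

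**Figure D4:**
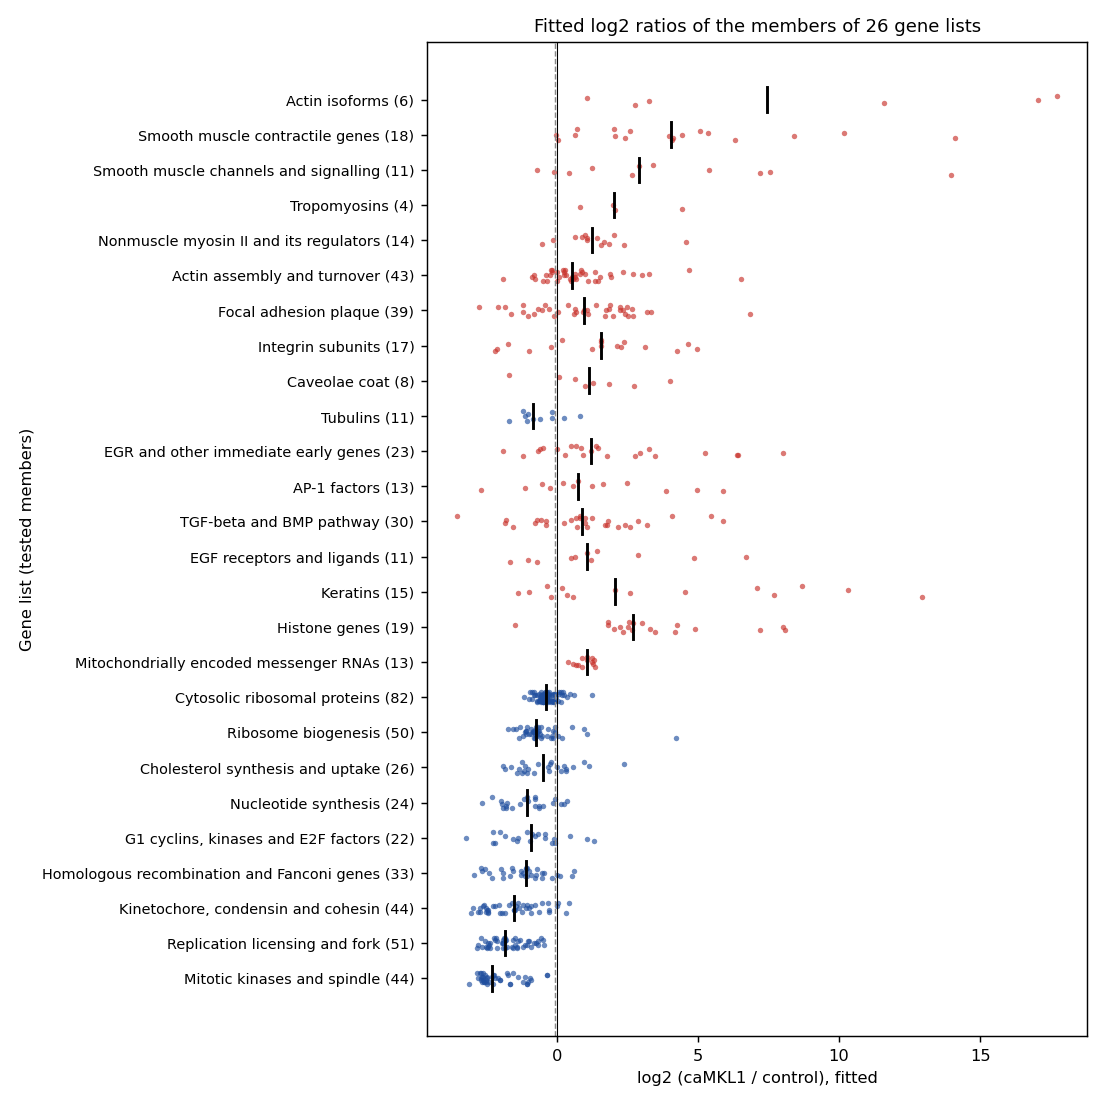
Fitted log2 ratio of caMKL1 to control (x axis) of each tested member of 26 gene lists (y axis, number of members in brackets). Black bars are list medians and the dashed line is the median of all tested genes, -0.05; all members of the mitotic and replication lists lie below 0.

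Protein synthesis and metabolism shifted by smaller amounts. Of 82 cytosolic ribosomal protein genes 45 fell and 4 rose, with a median log2 ratio of -0.40. With library totals 70 fell and 1 rose. Their summed share of counts was 2.64% to 2.74% in control and 1.81%, 1.48% and 1.46% with caMKL1. RPL4 fell 1.91-fold from 917 to 481 CPM, and RPS29, the largest exception, rose 2.37-fold from 56.5 to 133.8 CPM. Of 50 ribosome biogenesis genes 38 fell and 4 rose. FBL (fibrillarin) fell 2.93-fold from 92.1 to 31.4 CPM. WDR12, a factor of large subunit assembly, stood against the list at 59.6, 59.5 and 51.9 CPM in control and 947, 1170 and 1056 CPM with caMKL1, an 18.6-fold rise. WDR12 (chr2:202874261-203014798) is overlapped on the opposite strand by CARF, which stood at 7.2 and 37.99 CPM, below WDR12 in both groups.

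All 13 messenger RNAs encoded by mitochondria rose, with a median log2 ratio of 1.05, and with library totals 7 still passed and none fell. In 6 of the 13 every caMKL1 library lay above every control library, as in 34.6% of all genes, and in the other 7 the groups overlapped. caMKL1 library 1, however, lay nearer to control than its replicates. Among the 6, MT-CYB stood at 2801, 2797 and 3447 CPM in control and at 5294, 8613 and 9028 CPM with caMKL1, and MT-ND4 at 9955, 9168 and 12200 CPM against 14360, 29460 and 30560 CPM. Whether this follows the construct or the quality of single RNA samples was not tested. The 76 nuclear subunits of the same complexes had 12 rises, 13 falls and a median of 0.00, and with library totals 6 rises, 38 falls and a median of -0.40. Of 23 glycolysis genes 14 fell and 7 rose, and with library totals 15 fell and 1 rose. ALDOC fell 9.29-fold from 17.3 to 1.82 CPM and the transporter SLC2A3 from 45.9 to 10.5 CPM. Of 26 genes of cholesterol synthesis and uptake 14 fell and 6 rose (17 and 3 with library totals). LSS, which closes the sterol rings, fell from 38.4 to 10.7 CPM and INSIG1, a sterol sensor partner, from 214 to 80.6 CPM.

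Genes of innate immunity and antigen display were divided. Of 40 tested interferon-stimulated genes 20 rose and 12 fell, and with library totals 17 rose and 17 fell. GBP2, a guanylate-binding protein, rose 10.9-fold from 29.7 to 323 CPM and GBP3 fell from 71.0 to 24.2 CPM. Among 22 genes of MHC class I and antigen processing 13 rose and 5 fell (9 and 7 with library totals). TAP1, a chain of the peptide transporter, rose 28.4-fold from 6.41, 6.23 and 6.53 CPM to 226, 162 and 156 CPM. HLA-B rose from 16.2 to 55.6 CPM, B2M stood at 376 and 411 CPM and did not pass, and ERAP2, a peptide-trimming enzyme, fell 7.74-fold from 368 to 47.5 CPM. HLA genes are alike in sequence, and how the counting treated shared reads limits their values. Of 25 chemokine, interleukin-1 and NF-kB genes 12 rose, 3 of them with under 10 counts per control library, and 8 fell, and with library totals 10 rose and 10 fell. CXCL11, a ligand of CXCR3, went from 2 reads in all controls to 56.8, 77.0 and 76.8 CPM, and PTGS2 (cyclooxygenase-2) rose 19.1-fold from 9.61 to 184 CPM. The separate list of gp130 cytokines and colony-stimulating factors had 4 rises and 6 falls among 15 tested genes (4 and 9 with library totals). IL11, of that list, fell from 62.7 to 12.6 CPM. Among 25 genes of the BCL2 family and death receptors 13 rose and 6 fell (9 and 10 with library totals). CFLAR, which blocks death receptor signalling, rose from 38.4 to 179.2 CPM, FAS 8.18-fold from 4.91 to 40.2 CPM, and BCL2L1, the survival gene BCL-xL, fell 3.33-fold from 104.7 to 31.4 CPM.

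Markers of the LM2 line were compared next. VIM and CD44 were expressed in both groups, CD44 at 367 and 497 CPM, and KRT18 stood at 138 and 157 CPM without passing the test. CDH1 and PGR, which a triple-negative mesenchymal line lacks, did not pass the filter on low counts. The list of 12 markers of the line had 10 that passed it, of which 6 rose and 3 fell (5 and 3 with library totals). EPCAM, chosen as a marker of low level, rose 2.52-fold from 13.5 to 34.2 CPM. EGFR, chosen as a marker of high level, and ERBB2, of low level, fell, as given above. KRT17, a keratin of basal cells, went from 0.203, 0.152 and 0.075 CPM to 1344, 1051 and 1022 CPM, and KRT19 from 35.1 to 827 CPM. KRT16, close in sequence to KRT17, went from 1 control read to 7.3 CPM. Of 50 keratin names 15 passed the filter, 5 of them with under 10 counts per control library. Of the 15, 9 rose, those 5 among them, and 2 fell (8 and 4 with library totals). Epithelial junction genes, 10 risen and 8 fallen of 21 (6 and 9 with library totals), had no one direction: DSC2, a desmosomal cadherin, rose from 41.5 to 346 CPM and CLDN7 fell from 6.23 to 1.15 CPM. Of 9 tested mesenchymal transition factors and cadherins 5 rose and 3 fell. CDH11 rose from 1.3 to 16.3 CPM and FOXC1 from 9.46 to 143.8 CPM, while CDH4 fell from 115.2 to 17.8 CPM and ZEB1 from 166.1 to 94.1 CPM.

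Several genes unrelated to contraction appeared from a control level of nearly 0. In all, 303 genes with at most 3 reads over the 3 control libraries rose, 131 of them with no control read, and 63 reached at least 5 CPM. Such genes passed the filter through libraries with caMKL1 or wild-type MKL1 only, so their count is no measure of direction. Besides ACTG2, ACTC1, CARMN and KCNMB1 the most abundant were RPE65, the retinoid isomerase of the retinal pigment epithelium, at 130.9, 143.2 and 137.1 CPM, and RTL3, a gene derived from a retrotransposon, at 86.0, 76.1 and 80.6 CPM. ELAVL4, a neuronal RNA-binding protein, had no read in any control or wild-type MKL1 library and 64.0, 87.6 and 72.7 CPM with caMKL1. NCKAP1L, a blood cell member of the WAVE complex that directs actin branching, had none in control and 43.0, 33.7 and 38.2 CPM. At the other end, F2RL3, a thrombin receptor, had 1.14, 1.67 and 2.11 CPM in control and no read in any caMKL1 library. MAGEA12 was left with 1.38% of its control level, CDH12 with 1.52%, NTM with 1.92%, SPN with 2.1% and LINC01529 with 2.38%. These are low-level genes, with control means of 1.2 to 8.37 CPM. Of genes with a mean of at least 5 CPM over all 6 libraries the largest falls were those of ZNF521, 13.4-fold from 12.3 to 0.93 CPM, ENG, CADM2, BCAM, MAGEA3, HPSE, AOX1 and RASGRF1. AOX1, the aldehyde oxidase, was the most abundant of these in control and fell 9.69-fold from 126, 123 and 111 CPM to 13.5, 12.6 and 10.97 CPM.

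Markers of other cell types were examined for an admixture. Of 8 fibroblast markers 3 were tested, with a summed level of 5.8 to 7.77 CPM in control and 5.31 to 6.91 CPM with caMKL1, and DCN, PDGFRA, PDPN, FAP and THY1 did not pass the filter. The sum hides opposite movements, as 1 of the 3 rose, with under 10 counts per control library, and 1 fell. Of 10 endothelial markers 5 were tested and all 5 fell, with sums of 33.3 to 41.5 CPM in control and 7.94 to 10.5 CPM with caMKL1, and VWF and CDH5 did not pass the filter. Of 10 leukocyte markers 2 were tested, summing to 1.01 to 1.47 CPM and 2.16 to 4.77 CPM, and PTPRC did not pass the filter. Of 20 neuronal genes 7 were tested, with sums of 19.8 to 23.3 CPM and 78.5 to 105.1 CPM. ELAVL4 made up most of the latter.

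The active form was also set against wild-type MKL1 directly, which avoids counting the shared controls as 2 results. Against wild-type MKL1, 6150 genes were higher with caMKL1 (32.6%) and 6029 lower (31.9%), with a median log2 ratio of -0.04. In the comparison of wild-type MKL1 with the same controls, 11 of 18 smooth muscle contractile genes rose, as did 6 of 11 channel and signalling genes and 5 of 15 striated muscle genes, of which 1 fell, against 7.25% of all genes that rose and 4.74% that fell. In these lists 2, 4 and 10 members had under 10 counts per control library. Their passing rested on libraries with either form of MKL1, so these counts are no measure of direction. Several genes with large rises stood between the other groups with wild-type MKL1. ACTG2 averaged 0.013 CPM in control, 205.6 CPM ± 114.7 (SD, n = 3) with wild-type MKL1 and 3861 CPM ± 589 (SD, n = 3) with caMKL1, and the last 2 differed 18.8-fold (adjusted p = 3.53e-09, edgeR). LMOD1 averaged 7.06 CPM with wild-type MKL1 and differed 37.2-fold, TAGLN 281.6 CPM and 4.2-fold, FN1 1624 CPM and 4.47-fold, and CCN2 998 CPM and 8-fold. Of the 18 smooth muscle contractile genes 15 were higher with caMKL1 and none lower. ACTG1 was the exception among the abundant actins, at 1843 CPM with wild-type MKL1 and 1719 CPM with caMKL1 (adjusted p = 0.631, edgeR), and the 2 groups overlapped.

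Of the 44 mitotic genes 2 rose and none fell with wild-type MKL1 against control, and of the 51 replication genes 4 rose and none fell. TOP2A stood at 1045, 1222 and 1126 CPM with wild-type MKL1, and caMKL1 lay 7.1-fold below that (adjusted p = 3.61e-12, edgeR). All 44 mitotic and all 51 replication genes were lower with caMKL1 than with wild-type MKL1. CDKN1A averaged 23.2 CPM with wild-type MKL1, and caMKL1 lay 20.6-fold above it. FOS and NR4A3 were at 2.06 and 0.609 CPM with wild-type MKL1, and caMKL1 lay at 91.9 and 36.7 CPM. EGR1 was lower with wild-type MKL1 than in control, with a log2 ratio of -0.65 (adjusted p = 0.0216, edgeR). The libraries of these 2 groups overlapped, at 18.6, 25.2 and 30.4 CPM in control and 20.1, 14.9 and 12.5 CPM with wild-type MKL1. EGR1 was far higher with caMKL1. It averaged 24.8 CPM in control, 15.8 CPM ± 3.92 (SD, n = 3) with wild-type MKL1 and 276.8 CPM with caMKL1, and caMKL1 lay 17.5-fold above wild-type MKL1 (adjusted p = 2.22e-11, edgeR). Ribosomal protein genes were lower with caMKL1 than with wild-type MKL1 in 69 of 82 cases and ribosome biogenesis genes in 45 of 50. The wild-type MKL1 libraries were themselves uneven, with a chi-square per gene between pairs of 49.3, 35.5 and 20.6. Ribosomal protein genes took 3.81% of counts in wild-type MKL1 library 1 and 2.63% and 2.72% in libraries 2 and 3.

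**Figure D5:**
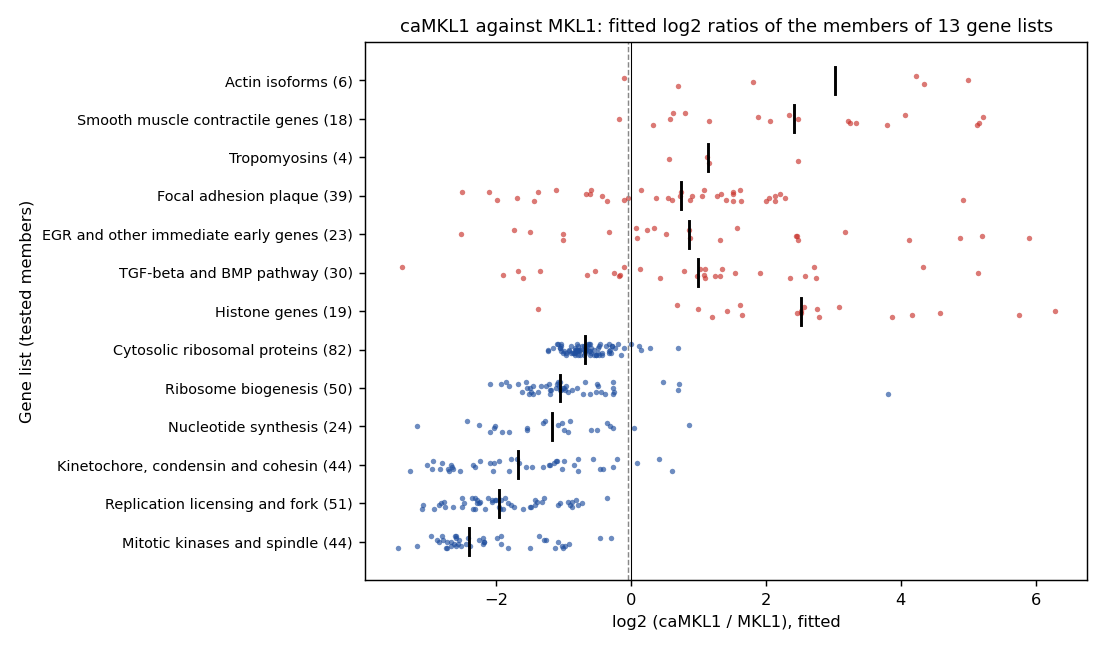
Fitted log2 ratio of caMKL1 to wild-type MKL1 (x axis) of each tested member of 13 gene lists (y axis, number of members in brackets). Black bars are list medians and the dashed line is the median of all tested genes, -0.04; smooth muscle and histone lists lie mostly above 0, and the mitotic and replication lists wholly below.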

How the data were processed

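Per the file headers, the authors counted fragments per gene name with featureCounts v2.0.1 over exons of the Ensembl 103 GRCh38 annotation, from STAR alignments, with no strand or multimapping option. The version of STAR is not stated there. The deposited counts are whole and not normalized; the exon length per gene in the deposited table served only the TPM of actins. Reads were 150 bp pairs from polyadenylated RNA, per the labels' protocols.

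Genes with at least 10 counts in enough libraries (edgeR's filterByExpr, edgeR 4.0.16, R 4.3.3) were kept, TMM factors were computed, and a quasi-likelihood model of 3 groups was fitted to 9 libraries, so that all groups share 1 estimate of the spread. Standard errors were derived from the F statistic. The fit was tested before use on simulated data, with 200 genes changed and all others unchanged. In the data 12271 genes were called, so that simulation cannot speak to the choice of the TMM scale. Replicate numbers did not pair the libraries: the correlations of same-numbered deviations were -0.01, -0.09 and 0.19. A floor of 3 counts over a group stands in for 0 in lower bounds, and intervals of count ratios cover counting error only.

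The members and lists were chosen with earlier results of these data known. Named genes were fixed genes of the pathway, the 8 largest rises and falls at 5 CPM or more, the genes nearest to 0 in either group, the 10 of largest share, and up to 5 passing, 3 opposing and 2 not passing genes of each list. Of the 189 genes named apart from EPCAM, 8 lie outside this rule and were chosen after their values were seen, as overlapping neighbours, promoter matches, markers or other members of a list. A few genes that the rule names are not reported here. Promoter sequences are RefSeq's (GRCh38.p14). DESeq2 1.42.0 and limma 3.58.1 served as alternatives.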

Additional observations from a re-analysis of the deposited data

How the results depend on the processing

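The counts of genes that rose (6030), fell (6241), rose at least 2-fold (3702) and fell at least 2-fold (2870) were recomputed under 15 alternatives: DESeq2, limma voom, DESeq2 size factors, library totals, scaling without mitochondrially encoded RNA, no filter on low counts, the 6 libraries alone, the replicate block, each of 6 libraries left out, and replicate 1 of both MKL1 groups left out. All stayed within 1.5 times the main count except the at least 2-fold falls with library totals, 5202. With 1 library left out at a time, rises ran from 5731 to 6041, falls from 5658 to 6153, at least 2-fold rises from 3721 to 3960 and at least 2-fold falls from 2781 to 3032. With the replicate number as a block, 6235 genes rose and 6596 fell, at least 2-fold 3711 and 2928; the numbers did not pair the libraries. Of the 189 genes named apart from EPCAM, 171 kept their side of the threshold, and their direction where they passed it, under every alternative that tested them. With library totals the log2 ratios of STAG2 (-0.087) and RRM2B (-0.049) reversed, and 13 of 62 lists had a median of the other sign. CD44, STAG1 and several mitochondrial RNAs no longer passed with library totals, and STAG2, MT-RNR2 or MT-ND2 did not pass without some single libraries. Genes with few counts in one group have fitted ratios that depend on the prior count; for these the counts themselves are given.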
